A study of Danio rerio with 9 samples.

Results

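Larvae that lacked both zPer2 and zCry1a were compared with wild type (WT) larvae after both had been kept in darkness, with 1 array for the double knockout (DKO) and 1 for WT. These are 2 of the 9 arrays of the series, which covers 3 genotypes (WT, DKO and a triple knockout, TKO) under 3 lightings (darkness, 3-h light and 12-h light) with 1 array for each combination. RNA came from the whole body of zebrafish larvae of the TL strain at 6 days post-fertilization (6 dpf), and the DKO line carries TALEN-induced mutations in both genes (zCry1a-/-zPer2-/-). TKO larvae additionally lack zCry2a. Larvae of each genotype were raised in darkness, and the 3-h and 12-h light arrays hold larvae that then received light for that time. For the DKO larvae the paper states that all 3 lightings were sampled 12 h after light onset. The 3-h light had thus ended well before sampling there, and the dark larvae were unlit controls of the same time. How many larvae were pooled for an array, and whether the WT larvae were siblings of the knockouts, is not given in the sources used here. All arrays of a genotype lie on a slide of their own, so genotype and slide cannot be told apart in any value below.

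In the vertebrate clock, CLOCK and BMAL proteins switch on genes that include the Period and Cryptochrome families, and the PER and CRY proteins in turn repress CLOCK and BMAL. In zebrafish, zPer2 and zCry1a are induced by light, and their products take part in setting cellular clocks that are otherwise out of phase with each other. Darkness is therefore the state in which neither gene has been induced by light. The comparison shows how larvae of the 2 lines differed when no light was given.

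Each value is the log2 signal of a probe minus the 75th percentile of its array (the level), and each difference is DKO minus WT. Compared were the probes that the scanner software marked well above background in WT or DKO larvae. On each array a dimmer signal was set to that of the faintest probe so marked, so that a difference against a dim probe is a lower bound. A gene was called when 2 or more of its probes were at least 2-fold apart the same way and none was 2-fold apart the opposite way. Of 7455 genes with 2 or more such probes, 52 were called (0.698%), 25 of them higher in DKO larvae (0.335%) and 27 lower (0.362%). With 1 array a group there is no replicate check and no p-value, and the number of arrays limits the precision. Spread can be read only within an array, from the 50 probes spotted more than once. Their spots differed with a standard deviation of 0.19 on the log2 scale, which gives 0.27 for a ratio of single spots. This does not cover the spread between arrays or between groups of larvae.

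Most genes were nearly level between the lines. The mean difference of a gene lay within 1.5-fold for 7131 of the 7455 genes (95.7%), with a median of -0.01 over all genes. The 52 genes called, which the rule picked for large differences, had a median absolute difference of 1.48, against 0.12 over all genes. They were somewhat dim, with a median level of -1.91 against -1.20 over all genes. Single probes gave 1221 of 38493 at least 2-fold apart (3.17%), 847 higher in DKO larvae and 374 lower, so that 69.4% of them were higher. With background correction by normexp and quantile normalization that share was 55.6%, with 179 probes higher and 143 lower.

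**Figure D1:**
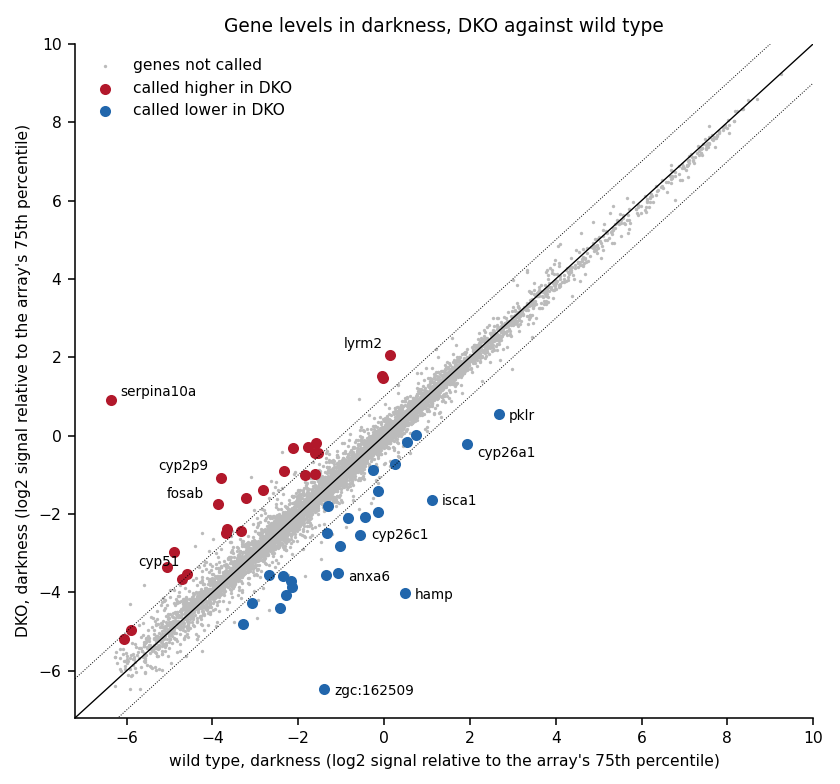
Level of each gene on the DKO array (vertical axis) against its level on the WT array (horizontal axis), both in darkness, as the mean log2 signal of the gene's probes relative to the array's 75th percentile. Each point is a gene, the solid line marks equal levels and the dotted lines mark 2-fold; 25 genes called higher (red) lie above the line and 27 called lower (blue) below it.

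The targeted genes come first, although their signal cannot check the genotype labels. Both probes of cry1a were lower in DKO larvae. The brighter one read 1.28 in WT and 0.43 in DKO larvae and the dimmer one -1.57 and -2.84, differences of -0.85 and -1.27, so that the mean was -1.06 (2.09-fold) but only 1 of the 2 probes passed 2-fold and the gene was not called. For per2, the probe that could be compared read -4.65 in WT and -4.37 in DKO larvae, and the other was not well above background on either array. TALENs leave the transcribed locus in place, so a mutant transcript can still hybridize, and neither gene's signal tells a mutant from a wild type allele.

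Clock genes, like most genes, differed little between WT and DKO larvae in darkness. Besides cry1a, 16 genes of the clock lists had 2 or more probes. Their mean differences ran from -0.30 to 0.20 with a median of 0.01. All 16 lay within 1.5-fold, as did 95.7% of all genes, and none was called, against 0.698% of all genes. These counts therefore do not set the clock genes apart from other genes. Among the Period genes, which carry the repressors, per1a stood at -1.42 in WT and -1.41 in DKO larvae, per1b at -0.78 and -0.80, and per3 at -2.51 and -2.48. These pairs differ by less than the spread between spots. The Cryptochrome genes cry1b and cry3b differed by 0.20 and 0.08. Those for the nuclear receptors of the second loop were as close, with nr1d1 at -0.18, nr1d2a at -0.01, nr1d2b at 0.01, roraa at -0.09 and rorab at 0.01. The output regulators tefa, hlfa, bhlhe40 and bhlhe41 differed by -0.12, 0.08, -0.09 and 0.03. For nfil3-6 the mean of -0.30 covers 5 probes that ran from -2.31 to 0.55.

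Of the clock activators, clockb was the one with 2 probes and differed by 0.09. The clock genes with 1 probe cannot be called by the rule. They were clocka (-0.23), npas2 (-0.70), bmal1a (-0.23), bmal1b (-0.17), bmal2 (-0.01), cry2 (-0.34), cry3a (-0.07), cry4 (0.02), nr1d4a (0.40), rorb (0.25), rorca (-0.30), rorcb (0.07), dbpa (-0.21), dbpb (-0.02), tefb (0.06), hlfb (0.07), nfil3 (0.08) and nfil3-5 (-0.14). All 5 activator genes with a single probe were below 0, and npas2, at a level near the lowest detected signal, was the furthest.

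The same 16 clock genes on the light arrays give the contrast. At 3-h light their differences ran from -0.38 to 0.68 with a median of 0.11, and 14 of the 16 lay within 1.5-fold. At 12-h light they ran from -0.38 to 2.06 with a median of 0.70, only 7 lay within 1.5-fold, and 5 were at least 2-fold apart. The gene furthest apart was per1b, which was 2.06 higher in DKO larvae at 12-h light, followed by bhlhe40 at 1.4, nr1d1 at 1.19, per1a at 1.14 and cry1b at 1.05. The per1b level was -0.80 on the DKO array and -0.78 on the WT array in darkness and -1.73 against -3.79 at 12-h light. Of all probes, 1126 of 39115 were at least 2-fold apart at 3-h light and 1647 of 39518 at 12-h light. In darkness they were 1221 of 38493. No test of the difference between lightings is possible with 1 array each.

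The enzymes that break down retinoic acid were lower in DKO larvae in darkness. Retinoic acid, the signalling form of vitamin A, is made from retinal by Aldh1a enzymes and degraded by the Cyp26 enzymes, while Dhrs3 enzymes turn retinal back into retinol; transcription of cyp26a1 and dhrs3 genes is known to be raised by retinoic acid itself. All 3 Cyp26 genes were among the 27 genes called lower. Both cyp26a1 probes were lower, from 2.54 to 0.28 and from 1.33 to -0.70, a mean difference of -2.14 (4.42-fold). The cyp26c1 probes went from 1.67 in WT to -0.23 in DKO larvae and from -2.81 to -4.85, a mean of -1.97 (3.93-fold). For cyp26b1, 3 of 4 probes were lower by 0.88 to 1.09 and the other stood at 0.75 and 0.84, so that its mean was -0.73 (1.66-fold).

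The dhrs3a probes read -0.30 and -1.38 in WT and -1.57 and -2.63 in DKO larvae, both 1.26 to 1.27 lower. Its paralog dhrs3b was 0.85 lower, with probes at -0.74 and -0.95, and missed 2-fold. Most genes that make, carry or read retinoic acid lay near 0. The synthesis gene aldh1a2 stood at 1.91 on both arrays, the retinol dehydrogenases rdh10a and rdh10b differed by 0.00 and 0.12, the retinol transporter stra6 by -0.11, the carriers crabp1a, crabp1b and crabp2a by -0.01, -0.13 and 0.07, and the receptor raraa by 0.04. Further down, the retinol carrier rbp4 was at -0.31, the receptor rxrgb at -0.43 and hoxb1b, a hindbrain gene that retinoic acid is known to induce, at -0.47. This list, with 27 retinoid genes on the array, was drawn up after the values had been seen. Of its 18 members with 2 probes 4 were called, all lower, against 0.362% of all genes, and its median was -0.18 against -0.01. As the values were known when the list was made, this count is not independent support for a change in the pathway.

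On the light arrays the gap was narrower, and the WT level was lower than in darkness. The cyp26a1 level was 1.93, 1.13 and 0.93 on the WT arrays of darkness, 3-h and 12-h light, and -0.21, -0.10 and -0.04 on the DKO arrays, which leaves differences of -2.14, -1.23 and -0.97. For cyp26c1 the differences were -1.97, -1.57 and -1.27, for dhrs3a -1.26, -0.78 and -1.01, and for cyp26b1 -0.73, -0.44 and -0.45. In TKO larvae against WT larvae at 3-h and 12-h light, cyp26a1 stood at -1.16 and -0.61, cyp26c1 at -1.27 and -0.91, dhrs3a at -0.66 and -0.56 and cyp26b1 at -0.46 and -0.22. Of these 2 lightings, 2-fold was passed only at 3-h light, by cyp26a1 and cyp26c1. In darkness cyp26a1 alone passed it, at -1.04. On the TKO dark array the levels were 0.90 for cyp26a1, -1.38 for cyp26c1, 0.11 for cyp26b1 and -0.85 for dhrs3a, next to 1.93, -0.57, 0.75 and -0.84 on the WT dark array and -0.21, -2.54, 0.02 and -2.10 on the DKO dark array. In darkness dhrs3a was therefore level with WT in TKO larvae, cyp26b1 was near DKO, and cyp26a1 and cyp26c1 lay between the other lines. These readings rest on the 1 TKO dark array. On the TKO arrays of 3-h and 12-h light dhrs3a read -1.82 and -1.79. After normexp background correction with quantile normalization cyp26a1 stayed called at -2.03, while cyp26c1 (-1.37), cyp26b1 and dhrs3a did not.

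**Figure D2:**
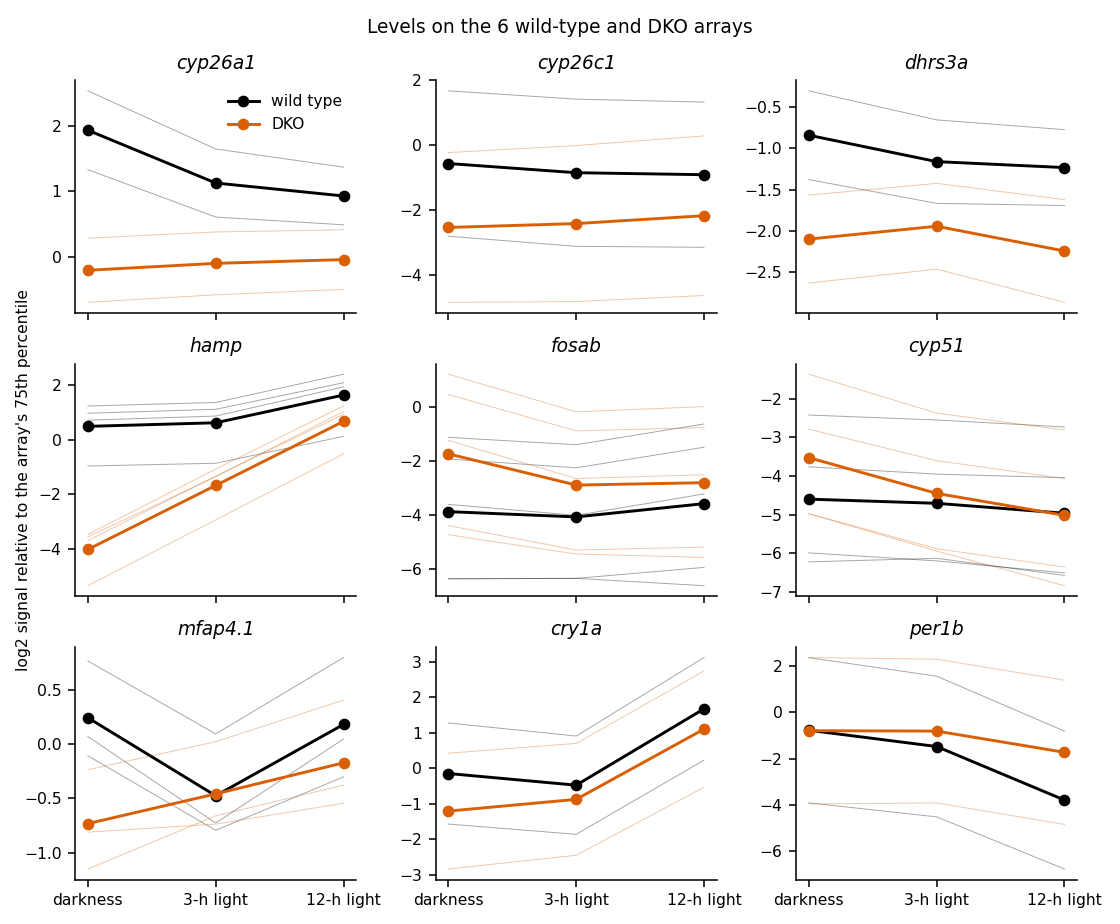
Level (log2 signal relative to the array's 75th percentile, vertical axis) of 9 genes under the 3 lightings (horizontal axis) in WT (black) and DKO larvae (orange); thick lines with points are the mean over the gene's probes and thin lines the single probes, with 1 array per point. The WT and DKO lines of cyp26a1, hamp and fosab are furthest apart in darkness. Those of per1b lie together in darkness and apart in light, and those of cyp51 lie together at 12-h light.

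The iron hormone gene hamp had the largest difference among genes measured well above background on both arrays. It encodes hepcidin, a liver peptide that blocks iron export from cells. Its 4 probes read 1.25, 0.98, 0.72 and -0.96 in WT larvae and -3.47, -3.70, -3.56 and -5.35 in DKO larvae. All 4 were thus lower by 4.28 to 4.72, a mean of -4.52 (22.9-fold). The WT level was 0.50 in darkness, 0.63 at 3-h and 1.65 at 12-h light, while the DKO level was -4.02, -1.67 and 0.68. The difference was thus smaller on the light arrays, at -2.30 for 3-h and -0.97 for 12-h light. The DKO array in darkness was the lowest of these 6. The TKO arrays, from larvae that also lack zPer2 and zCry1a, read -0.93, -0.90 and 0.32, so that the dark level of hamp was 1.43 below WT there against 4.52 below in DKO larvae; both values use the WT dark array.

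Of the 10 members of the iron and heme list with 2 probes, hamp alone was called, against 0.698% of all genes, and the median was -0.05. Outside that list, the iron-sulfur cluster gene isca1 and slc25a39, whose mitochondrial carrier is needed for heme synthesis, were called lower and are described with the mitochondrial genes. The iron exporter gene slc40a1, on whose product hepcidin acts, differed by 0.10, the transferrin receptor gene tfr2 by 0.12, the transferrin gene tfa by 0.40, and the ferritin genes fth1a and fth1b by 0.04 and -0.18. Genes for other secreted liver proteins had a median of -0.19, 18 of 24 were below 0, and 1 was called, against 0.698% of all genes. The abundant liver gene fabp10a was 0.76 lower, at 6.77 in WT and 6.01 in DKO larvae. In whole-body RNA, fewer cells of a type and less RNA per cell cannot be told apart, and the part of liver content in the hamp difference was not tested. The only call within the liver list went the other way (serpina10a, which is described further on, is not in that list): ahsg2, which encodes a fetuin, was higher on all 3 probes by 1.28 to 1.6 (mean 1.43), and by 1.51 and 1.95 at 3-h and 12-h light.

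Myeloid genes lay mostly below 0 in darkness. Of the 14 neutrophil and macrophage genes with 2 or more probes, 13 were below 0, with a median of -0.42, the lowest of the 36 lists; the median of all genes was -0.01. At the 2-fold rule 1 of the 14 was called, against 0.698% of all genes. At 1.5-fold 5 of them were called, all lower, against 2.78% of all genes in either direction. The gene called at 2-fold was mfap4.1, a macrophage marker in zebrafish, whose level was 0.24 in WT and -0.73 in DKO larvae (-0.97). The neutrophil peroxidase gene mpx was lower on 3 of 3 probes by 0.60 to 0.70, the complement genes c1qb and c1qc by 0.55 and 0.82 on average, and spi1b, which encodes a myeloid transcription factor, by 0.75.

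The macrophage gene mpeg1.1 differed by -0.29 and the pan-leukocyte genes coro1a and lcp1 by -0.12 and 0.13. For the neutrophil protease gene npsn the mean of -1.72 came from a single probe, which read 0.08 in WT larvae and was at background in DKO larvae; its other 3 probes ran from -0.38 to 0.29. Of the 11 members with 1 probe, 8 were below 0, among them mpeg1.2 at -0.90, lygl1 at -0.83 and lyz at -0.26. At 3-h light the list's median was 0.02 and at 12-h light -0.25. The mfap4.1 difference was 0.02 and -0.35 there, and the WT level at 3-h light was -0.48, next to -0.46 in DKO larvae. The dark median was -0.23 with normexp and quantile normalization and -0.25 over probes well above background on both arrays. In TKO against WT larvae mfap4.1 stood at 0.31 in darkness, 0.18 at 3-h and -0.12 at 12-h light, so it was not lower in TKO larvae in darkness.

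Genes of cholesterol synthesis lay mostly above 0 in darkness. Of 14 with 2 or more probes, 13 were above 0, with a median of 0.32, the highest of the 36 lists, and 1 was called (0.698% of all genes were). That gene was cyp51, the lanosterol demethylase of the pathway. Its 4 probes read -2.42, -3.76, -5.99 and -6.22 in WT and -1.36, -2.79, -4.98 and -4.98 in DKO larvae, differences of 0.98 to 1.25 (mean 1.07, 2.11-fold). Upstream enzymes followed with smaller differences: fdps 0.47, mvda 0.45, hmgcs1 0.39 and hmgcra 0.39, the last of which encodes the rate-limiting reductase. The regulator genes srebf2 and insig1 stood at 0.34 and 0.30. Of the 11 members with 1 probe, 9 were above 0, among them lss at 1.07 and sqlea at 0.79, while idi1 was at -0.53.

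The median of the sterol list was 0.21 at 3-h and 0.02 at 12-h light, and cyp51 itself was at 0.26 and -0.05. The DKO level of cyp51 was -3.52 in darkness, -4.45 at 3-h and -5.02 at 12-h light, against -4.60, -4.71 and -4.96 in WT larvae. With normexp and quantile normalization cyp51 differed by 0.39 in darkness and the list's median was 0.19. In TKO against WT larvae cyp51 stood at 1.50 in darkness, 0.58 at 3-h and 1.32 at 12-h light.

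Glycolysis genes were close to level, with a median of -0.12 over 33 genes, 24 of them below 0, and 1 called, against 0.698% of all genes. The call, pklr for the pyruvate kinase of liver and red blood cells, rests on 2 of its 6 probes. One of them read 5.28 in WT larvae and was at background in DKO larvae, and one went from 4.72 to 3.50, while the other 4 differed by -0.14 to 0.32. The probes of this gene therefore disagree, and over probes well above background on both arrays the mean was -0.19. Also lower was pfkfb2a, for an enzyme that sets the level of a glycolytic activator, with probes at -2.56 and -0.83. The largest difference among the 8 members with 1 probe was that of gpib, for a glucose phosphate isomerase, which was 3.40 higher (10.6-fold, from -4.57 to -1.17) and 3.07 and 2.85 higher at 3-h and 12-h light. Its probe read -4.40 on the TKO dark array, near the WT level.

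Genes of the respiratory chain had a median of -0.12, with 33 of 47 below 0. The 1 called, against 0.698% of all genes, was ndufs8b, for a complex I subunit, which was 1.29 higher on both probes. On the other side atp5mea, for an ATP synthase subunit, was 1.28 lower with probes at -1.82 and -0.75. Other genes called encode mitochondrial proteins too, a grouping made after the values were seen, with no count of all mitochondrial genes tested to set it against. They went both ways. Besides ndufs8b, lyrm2 was higher by a mean of 1.90 and clpxa, for the unfoldase of a matrix protease, by 0.62. Lower were isca1, for an iron-sulfur cluster assembly protein, from 1.11 to -1.63 (-2.74, 6.66-fold), and the carrier gene slc25a39, from -1.33 to -2.47 (-1.15). The 5 lyrm2 probes were split: 3 dim ones were 2.32 to 3.78 higher, and the 2 bright ones, at 7.90 and 6.13 in WT larvae, differed by 0.19 and 0.37.

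**Figure D3:**
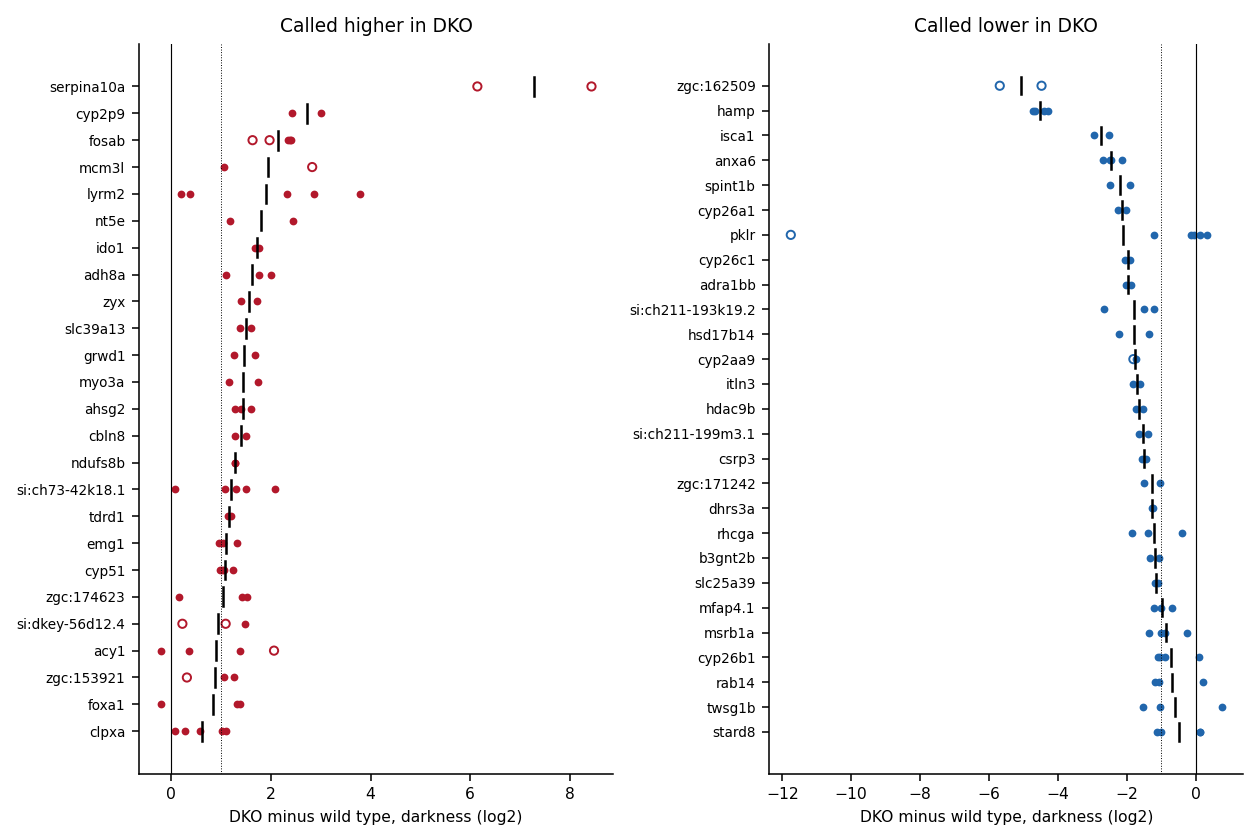
Difference of every probe of the 52 genes called, DKO minus WT in darkness (log2, horizontal axis), for the genes called higher (left, red) and lower (right, blue); black bars are the gene means, dotted lines mark 2-fold, and open circles are probes not well above background on 1 of the arrays. All 4 hamp probes lie between -4.72 and -4.28, whereas the pklr probes run from -11.75 to 0.32.

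The immediate early gene fosab, whose product is part of the AP-1 transcription factor, was higher on 5 of 5 probes. The 3 brightest read -1.12, -1.93 and -3.61 in WT and 1.22, 0.47 and -1.23 in DKO larvae, differences of 2.35 to 2.39, and the other 2 were not well above background in WT larvae and at least 1.63 and 1.97 higher. The mean was at least 2.15 (4.42-fold) in darkness, and 1.18 and 0.78 at 3-h and 12-h light. A list of immediate early genes was put together after that had been seen. Of its 12 members with 2 probes, 11 were above 0, with a median of 0.27, and fosab alone was called, against 0.698% of all genes. The list was thus made with the fosab call known, and that call is no independent support for it. The next were npas4a, a neuronal activity gene, at 0.96, with 1 of its 2 probes dim in WT larvae, and btg2 at 0.69, while jun stood at -0.17, fosl2 at 0.03 and egr3 at 0.25.

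For 2 genes the signal was present in one line and at background in the other. Both serpina10a probes, for a liver serpin that in mammals inhibits a clotting protease, were not well above background in WT larvae and read 2.06 and -0.23 in DKO larvae, a mean difference of at least 7.29 (at least 156-fold). The DKO level was 0.91, 0.84 and 1.22 under the 3 lightings. On the WT 3-h light array, however, the probes reached -1.97 and -4.60, and the difference there was 4.13, against 7.98 at 12-h light. The opposite was seen for zgc:162509, whose 2 comparable probes read -0.79 and -2.0 in WT larvae and were at background in DKO larvae (at least 5.08 lower, at least 33.9-fold). In DKO larvae these 2 probes stayed near the floor at 3-h and 12-h light, with differences of -5.34 and -5.67. In TKO larvae they were well present, at a mean level of -3.18 in darkness, -2.66 at 3-h and -3.05 at 12-h light, next to -1.39, -1.35 and -0.88 in WT larvae. The gene was thus lower in TKO larvae too, but not at background. The serpina10a level on the TKO arrays was 1.59, 1.66 and 1.65, near that of DKO larvae.

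Other genes called were spread over many functions. The 50 xenobiotic list members with 2 probes gave 1 higher and 4 lower, against 0.335% and 0.362% of all genes. The list takes every cyp2 symbol by pattern, however, and so holds the 3 Cyp26 genes already described. The others were cyp2p9, which was 2.72 higher (6.59-fold; probes from -1.90 to 1.11 and from -5.71 to -3.27), and cyp2aa9, which was at least 1.77 lower. Both belong to a large family of P450 genes, and whether their probes also read related genes was not checked. Alcohol dehydrogenase adh8a was higher on 3 of 3 probes (1.62), and ido1, whose product opens the breakdown of tryptophan, went from -5.06 to -3.35 (1.72).

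Still higher in DKO larvae were nt5e, for the enzyme that makes extracellular adenosine (1.81), mcm3l, a relative of a DNA replication helicase subunit (at least 1.94), zyx, for the adhesion protein zyxin (1.56), the zinc transporter gene slc39a13 (1.50), the ribosome assembly genes grwd1 (1.47) and emg1 (1.11), myo3a, for a myosin of sensory cells (1.45), cbln8, for a secreted cerebellin (1.39), and the germline gene tdrd1 (1.17). Lower were anxa6, for a membrane-binding annexin, on 4 of 4 probes (-2.45, 5.46-fold), spint1b, for an inhibitor of epithelial proteases (-2.19), the adrenergic receptor gene adra1bb (-1.96), the steroid dehydrogenase gene hsd17b14 (-1.79), the lectin gene itln3 (-1.72), the histone deacetylase gene hdac9b (-1.64), the muscle gene csrp3 (-1.52), the ammonia transporter gene rhcga (-1.22) and the glycosyltransferase gene b3gnt2b (-1.19). The uncharacterized genes si:ch211-193k19.2, si:ch211-199m3.1 and zgc:171242 were lower by 1.79, 1.52 and 1.27, and si:ch73-42k18.1 and zgc:174623 were higher by 1.21 and 1.03.

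Of the 52 genes called, 34 had every probe at least 2-fold apart and 18 had a probe under 2-fold, 7 of them with a probe of the opposite sign (acy1, foxa1, stard8, twsg1b, rab14, cyp26b1 and pklr). For 11 of the 52 the mean over all probes was under 2-fold, as for foxa1, for a pioneer transcription factor of the endoderm (0.83). Just inside the threshold lay msrb1a and mfap4.1, whose deciding probe differed by -1.0, and just outside it fads2 and gfm2 at 0.99.

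Most lists for the tissues of the larva held no gene called in darkness. Of the 36 lists, which hold 692 genes with 2 or more probes, 27 had no gene called and 9 had at least 1. Among the 692 list genes 11 were called, next to 52 of all 7455 genes (0.698%). At that share a short list can hold 0 called, so a 0 is not by itself a result about a tissue. The mean of 643 of the 692 genes (92.9%) lay within 1.5-fold, next to 95.7% of all genes. Fast skeletal muscle genes had a median of -0.03, slow and cardiac muscle genes 0.06, genes of neurons and glia -0.04, epidermis and mucus genes -0.10, cartilage and bone genes 0.06, exocrine pancreas genes -0.01, intestinal genes 0.09, pigment cell genes 0.11, lens crystallins -0.12, rod and cone genes -0.07 and ribosomal protein genes -0.10, with 0 genes called in each. Nearly all members of these lists were well above background on both arrays, for example 40 of 40 in fast muscle and 58 of 61 among the crystallins. The 8 pituitary, hypothalamic and islet hormone genes with 2 or more probes all lay below 0, between -0.36 and -0.05. Of the 19 with 1 probe, 14 were below 0 and 5 above, the furthest being cga, for the shared subunit of pituitary glycoprotein hormones, at -1.17 and tac1, for a tachykinin, at 0.16.

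Red blood cell genes split by their number of probes. The 12 with 2 or more probes had a median of 0.11, with the heme synthesis gene alas2 and the membrane exchanger gene slc4a1a at 0.44 each, and the 7 with 1 probe, 6 of them globins, were all above 0 with a median of 0.94. Among the globins the larval genes hbae3 and hbae1.1 stood at 0.17 and 0.22, and were the bright ones, at 6.58 and 6.68 in WT larvae, while hbba1, hbba2, hbaa2 and hbbe3, dimmer in WT larvae, were 0.99, 0.94, 1.18 and 1.48 higher; such paralogs can share signal. The 6 genes of the pineal list with 2 or more probes had a median of 0.13, with 4 above 0 and 2 below. Of these 6, 0 were called, against 0.698% of all genes, so the 0 is not by itself a result. The 6 with 1 probe were all below 0. Among these, aanat2, for the enzyme that times melatonin synthesis, stood at -0.15 in darkness, -0.87 at 3-h and -1.15 at 12-h light. The probe of asmt, for the last enzyme of that pathway, stood at -0.38, 0.04 and -0.24. The probe of asmt2, a second gene for that step, was 2.40 lower (from -0.52 to -2.92), -2.16 at 3-h and -2.50 at 12-h light. On the TKO arrays that probe read -0.79 in darkness, -0.87 at 3-h and -0.55 at 12-h light, next to -0.52, -0.37 and 0.15 in WT larvae.

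**Figure D4:**
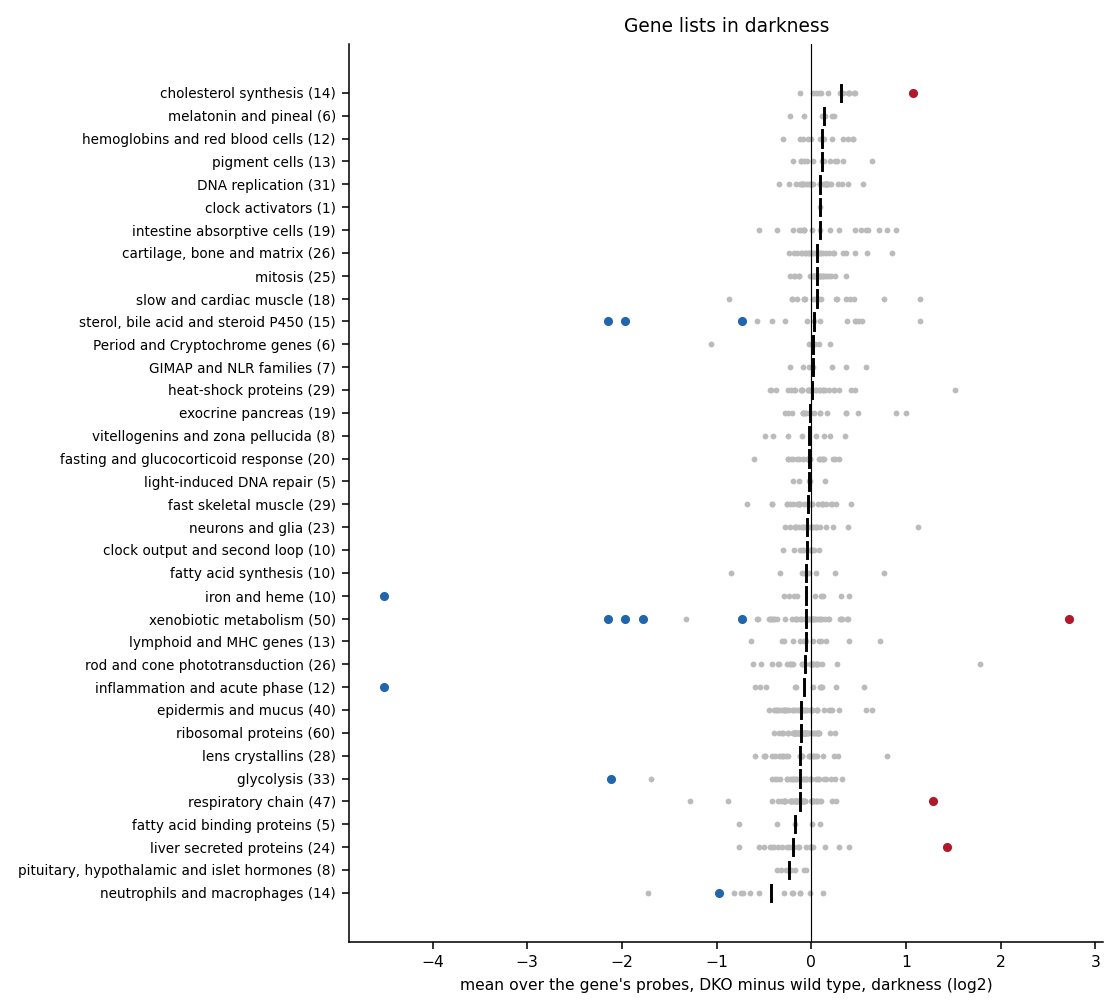
Mean difference of each gene with 2 or more probes, DKO minus WT in darkness (log2, horizontal axis), for the 36 gene lists (rows, ordered by median, with the number of genes in parentheses); black bars are medians, and red and blue points are genes called higher and lower. The medians run from -0.42 for neutrophil and macrophage genes to 0.32 for cholesterol synthesis genes.

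Most of the dark difference was also present on the light arrays, which come from other larvae of the same lines on the same slides. By the mean over the probes that could be compared at each lighting, 36 of the 52 genes called in darkness were at least 2-fold apart the same way at 3-h light, 33 at 12-h light, and 31 at both (59.6%), 16 higher and 15 lower. Over all genes 0.836% were at least 2-fold apart the same way at both. This is a rule of the mean, which 11 of the 52 already missed in darkness. Under the rule of 2 probes used for the calls, 36 passed at 3-h light, 36 at 12-h light and 31 at both, against 0.445% of all genes (33 genes). The sign was the same under all 3 lightings for 49 of the 52, the exceptions being cyp51, mfap4.1 and twsg1b. In TKO against WT larvae at 3-h and 12-h light, 20 of the 51 that could be compared were 2-fold apart the same way at both, against 0.876% of all genes. Those with like values throughout included isca1 (-2.74, -3.04 and -2.47 in darkness, 3-h and 12-h light; -3.14 and -2.77 in TKO larvae), hsd17b14 (-1.79, -1.58 and -1.79; -1.69 and -1.63) and nt5e (1.81, 1.48 and 1.89; 2.23 and 2.44).

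Other genes had unlike values in DKO and TKO larvae, a difference that was not tested. The anxa6 difference was -2.45, -2.16 and -1.64 in DKO larvae and -0.20 and -0.47 in TKO larvae at 3-h and 12-h light, adra1bb was at -1.96, -1.88 and -1.84 against -0.65 and -0.42, and itln3 at -1.72, -1.67 and -1.26 against -0.01 and 1.14. The genes whose gap was at least 2-fold smaller at both lightings than in darkness came to 1, hamp. By the mean, 14 genes did not reach 2-fold at either lighting, and by the rule of 2 probes 11, with cyp51, mfap4.1, rhcga, cyp2aa9, cyp26b1 and tdrd1 among them under both. The tdrd1 mean missed 2-fold narrowly, at 0.95 and 0.995 at 3-h and 12-h light, next to 1.17 in darkness. The b3gnt2b mean was under 2-fold only where a probe at background in darkness was averaged in; over the 2 probes compared in darkness it was -1.05 and -1.01. For rhcga, which serves in ammonia excretion, the differences were -1.22, -0.61 and -0.20.

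**Figure D5:**
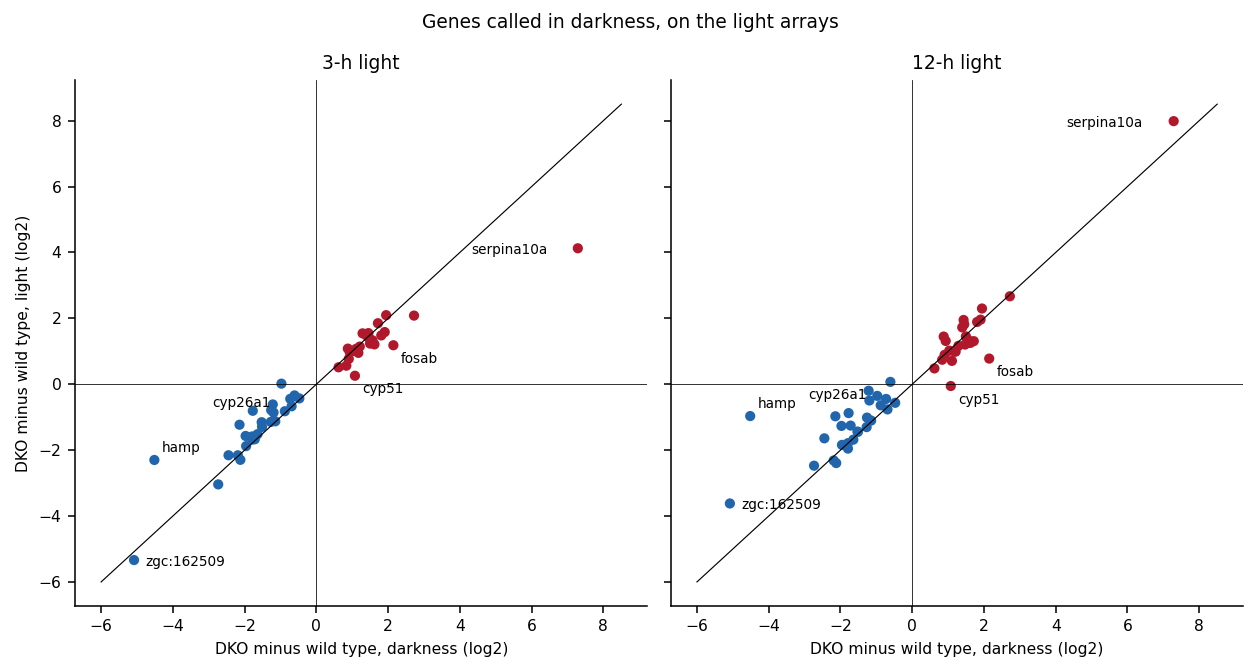
Mean difference DKO minus WT of the 52 genes called in darkness (log2), on the light arrays (vertical axis; 3-h light left, 12-h light right) against darkness (horizontal axis), with genes called higher in red and lower in blue; the diagonal marks equal differences light means are over the probes comparable at that lighting, and no array is shared between the axes. Most genes lie near the diagonal, and hamp, fosab and cyp51 lie nearer to 0 in light than in darkness.

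The 52 genes called lay on 17 of 25 chromosomes. In the gene order of the RefSeq table of assembly GRCz12tu, which is a later assembly than the one the arrays were annotated to, 9 of the 307 tested genes of one chromosome were called (emg1, grwd1, hamp, hdac9b, pklr, si:ch73-42k18.1, si:dkey-56d12.4, zgc:162509 and zyx) and 8 of the 334 of another (cyp2p9, fosab, lyrm2, mcm3l, nt5e, serpina10a, si:ch211-199m3.1 and spint1b). These 2 chromosomes, picked for having the most, hold 17 of the 52 genes called and 8.60% of the genes tested. Both directions occurred on each, 5 higher and 4 lower on the first and 6 and 2 on the second. Close neighbours included emg1 and zyx with 1 annotated gene between them (1.11 and 1.56), slc25a39 and hsd17b14 with 7 between them (-1.15 and -1.79), nt5e and lyrm2 with 12 (1.81 and 1.90), and grwd1 and zgc:162509 with 6 between them and opposite signs (1.47 and -5.08).

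Neither chromosome holds per2 or cry1a. Of the 50 annotated genes on each side of per2, 12 could be tested and 0 were called, with means from -0.12 to 0.14. Around cry1a, 21 could be tested and 0 were called, with means from -0.87 for tnnt2c to 1.58 for mrps33, each with probes that disagreed, and with b2m lower by 0.64 on average. The chromosomes of per2 and cry1a held 1 called gene each, among 367 and 268 tested. Of all genes tested 0.698% were called. At that share, 0 called around a targeted gene and 1 on its chromosome are not by themselves a result about these loci.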

How the data were processed

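Whole-body RNA of larvae was labelled with Cy3 and hybridized to 1-colour Agilent zebrafish arrays, read by Feature Extraction 11.5.1.1 per the file headers. The deposited intensity is the processed signal of each spot, background-subtracted and not normalized between arrays; flags in the deposited files (other values, 0 or 1) mark spots well above background or irregular. The authors also deposited a table of the same intensities times 1 constant per array (3.12 to 3.62). Log2 values, each minus the array's 75th percentile, were computed from these intensities. Irregular spots (4 on the WT and 3 on the DKO array) were left out, no spot was saturated, and spots of one probe were averaged.

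Of 43603 probes, 26094 were paired with 13443 gene symbols through RefSeq transcript accessions (assembly GRCz12tu), for names and gene order only. The WT and DKO arrays had 85.9% and 87.5% of spots well above background and 75th percentiles of 633 and 636. The genes named were the targeted genes, all clock genes of 3 lists, the 15 called genes with the largest mean difference in each direction and up to 5 called genes of each list; others were chosen after their values were seen. The comparison, its lists and rules were chosen with earlier results of these data known, and the retinoid, immediate early and mitochondrial lists after the values were seen. List patterns took in hbegfa and hbegfb with the globins. No p-value was computed. The calling steps were tested on simulated data without dim probes, with the same shift in every probe of a gene and only the spread between spots. That test does not cover dim or disagreeing probes or the spread between arrays. Alternatives were 4 scalings (normexp with limma 3.58.1 in R 4.3.3, offset 50), no floor, 2 filters, irregular spots kept, 2 folds and 2 gene rules. Counts used Python 3.11.15 with pandas 2.3.3 and numpy 2.4.6.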

Additional observations from a re-analysis of the deposited data

Results flagged for a closer look

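Searched were the genes called in darkness and the list genes that passed the call rule at 1.5-fold there. For 2 of them the difference between DKO and WT larvae had the opposite sign on both light arrays and reached 1.5-fold on at least 1 of these. Genes with smaller differences in darkness were not searched. With 1 array per condition the difference between lightings was not tested. The fatty acid synthase gene fasn2 stood at -0.85 in darkness (log2, mean of 2 probes) but at 1.69 after 3-h light and 0.47 after 12-h light, and its levels were low on all 6 arrays. The gene pde6ha, for a phosphodiesterase subunit of cones, stood at -0.62 in darkness but at 0.81 after 3-h light and 0.53 after 12-h light. Groups of 1 array allowed no search for outlying samples.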

How the results depend on the processing

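No paired analysis was possible because each group has 1 array, and no array could be left out. The 52 genes called became 18 with normexp (median signals, offset 50) and quantile normalization together (17 of them shared), 207 at 1.5-fold, 17 at 3-fold and 34 where all probes of a gene had to pass. The 1221 probes at least 2-fold apart became 322, 3706 and 370 under the first 3 of these. Genes called within the lists were 11 in the main setting, 2 with normexp, 44 at 1.5-fold, 5 at 3-fold, 7 where all probes had to pass and 18 by the gene mean. The percent of called genes that were 2-fold apart the same way at both lightings was 59.6, and 79.4 where all probes had to pass. In 2 readings chosen after seeing the data it was 61.5 (probes compared in darkness) and 59.6 (call rule at each lighting). At the 3-fold setting the cut-off in light was raised to 3-fold too. There 41.2% of the called genes passed it the same way at both lightings, a value not comparable with the 2-fold ones. The percent higher in DKO larvae, 48.1, ran from 41.2 to 56.4 over the 12 alternatives. Quantile normalization shared 50 of the 52 genes, median scaling and the authors' own scaling 52 each, and only probes well above background on both arrays 45. Gene means moved by more than 0.27 in 51 of 411 comparisons, with no sign reversed. List medians changed by more than 1.5 times or in sign in 56 of 288, most for the neutrophil and macrophage list, from -0.42 to -0.23 with normexp and -0.25 over probes well above background on both arrays; cholesterol synthesis went from 0.32 to 0.19 with normexp. Normexp adds a constant before the log and so shrinks differences of dim genes; serpina10a stood at 4.24 and hamp at -3.21 there, and without a floor serpina10a at 9.43. The search of promoters for clock motifs was not run, as no promoter sequence was used here. Genes at the floor give bounds only.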
